A study of Mus musculus with 3 samples.

Results

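Peaks of histone homocysteinylation and of H3K4me3 along mouse chromosome 6 were examined in NE4C cells, an established mouse neural stem cell line, for which the labels name no added homocysteine thiolactone. Chromatin was immunoprecipitated with an antibody to homocysteinylated lysine 79 of histone H3 (H3K79Hcy), an antibody to homocysteinylated lysine in general (KHcy) or an antibody to H3K4me3, with 1 library for each. All peaks that the 3 deposited lists place on chromosome 6 of the mm9 build were taken, which gave 1149 of 7387 H3K79Hcy peaks, 1169 of 7300 KHcy peaks and 2029 of 19339 H3K4me3 peaks. The H3K79Hcy antibody was a rabbit polyclonal for which the study's own peptide test found weak recognition of the unmodified peptide, and the cells were of 1 line only.

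Homocysteine thiolactone is a reactive cyclic form of homocysteine, made by methionyl-tRNA synthetase, that attaches to the side chain of lysines and so leaves homocysteine on proteins, histones among them. Raised homocysteine in the mother is a known risk factor for failure of the neural tube to close in the embryo. H3K4me3 marks the promoters of active genes and is the usual reference mark for such an experiment.

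Chromosome 6 was chosen because its H3K79Hcy peaks were the densest of any chromosome, so that density is a description and carries no test. It held 7.85 H3K79Hcy peaks per Mb of sequence outside assembly gaps, with chromosome 1 next at 6.97 per Mb and the rest of the genome at 2.59 per Mb. The KHcy list, which the choice did not use, also had its highest density on chromosome 6, at 7.99 peaks per Mb against 2.54 per Mb elsewhere. It came from the same cell line and also ranked chromosome 1 as number 2. Its rank of chromosome 6 is therefore not independent of the choice. The H3K4me3 list had 13.9 peaks per Mb on chromosome 6 against 7.18 elsewhere, and ranked chromosome 6 as number 4, behind chromosome 5 at 23.9 per Mb. With 1 library per antibody no difference between antibodies or chromosomes could be tested against replicates, and all intervals below cover counting error only.

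The sequences of 7 windows of 200 bases show what some chosen peaks of chromosome 6 lie on. The windows were picked and do not represent all its peaks. Each is the plus strand of mm9, written 5′ to 3′ in lower case with every CpG in capitals. The Chl1 window and the window near the start of the chromosome carry the strongest peaks, the Sox5 window the next strongest of H3K79Hcy and KHcy. The boundary window lies in the first peak of the dense part. The Emx1 and Hist4h4 windows lie directly before gene starts, in the direction of each gene. The Cecr2 window is the middle of the strongest H3K79Hcy peak of that gene.
Chl1 intron, chr6:103599001-103599200: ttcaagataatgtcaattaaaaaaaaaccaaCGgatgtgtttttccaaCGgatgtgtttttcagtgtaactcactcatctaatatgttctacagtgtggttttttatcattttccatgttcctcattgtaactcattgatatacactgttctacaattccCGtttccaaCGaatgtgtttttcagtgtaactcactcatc
Start of the chromosome, chr6:3151401-3151600: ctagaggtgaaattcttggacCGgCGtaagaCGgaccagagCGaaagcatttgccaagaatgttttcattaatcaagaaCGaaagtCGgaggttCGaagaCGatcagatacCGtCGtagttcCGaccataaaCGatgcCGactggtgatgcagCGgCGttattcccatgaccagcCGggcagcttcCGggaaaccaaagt
Sox5 intron, chr6:144393201-144393400: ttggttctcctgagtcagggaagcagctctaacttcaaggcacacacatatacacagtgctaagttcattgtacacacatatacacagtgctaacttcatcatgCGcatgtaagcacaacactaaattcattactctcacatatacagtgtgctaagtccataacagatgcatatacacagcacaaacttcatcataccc
First KHcy peak of the dense part, chr6:90882001-90882200: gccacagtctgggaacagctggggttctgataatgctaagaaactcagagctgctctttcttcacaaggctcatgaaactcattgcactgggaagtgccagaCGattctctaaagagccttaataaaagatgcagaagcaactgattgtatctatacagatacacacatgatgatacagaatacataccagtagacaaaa
Bases before the Emx1 gene start, chr6:85137232-85137431: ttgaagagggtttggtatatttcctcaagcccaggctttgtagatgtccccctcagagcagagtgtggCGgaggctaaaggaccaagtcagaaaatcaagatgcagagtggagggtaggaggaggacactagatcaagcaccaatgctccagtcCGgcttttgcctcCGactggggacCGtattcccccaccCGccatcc
Bases before the Hist4h4 gene start, which lies on the minus strand, chr6:136752901-136753100: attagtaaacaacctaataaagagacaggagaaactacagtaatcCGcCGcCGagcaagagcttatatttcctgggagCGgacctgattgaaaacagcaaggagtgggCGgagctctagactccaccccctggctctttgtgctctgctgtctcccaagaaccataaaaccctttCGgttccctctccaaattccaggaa
Cecr2 intron, chr6:120694501-120694700: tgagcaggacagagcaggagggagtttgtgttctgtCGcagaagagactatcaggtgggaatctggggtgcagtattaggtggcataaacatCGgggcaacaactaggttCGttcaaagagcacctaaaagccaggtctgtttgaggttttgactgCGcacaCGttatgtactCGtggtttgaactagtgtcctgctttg
The window near the start of the chromosome held 17 CpGs, against 1 in the Sox5 window, 1 in the boundary window, 4 in the Chl1 window, 5 in the Emx1 window and 6 in each of the Cecr2 and Hist4h4 windows. GC content ran from 33.5% in the Chl1 window to 54.5% in the Emx1 window.

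The peaks of all 3 antibodies lay almost wholly in the last 58.5 Mb of the chromosome. The position that best split each list into a sparse and a dense part, by the likelihood of 2 constant rates, was found separately for each antibody. The first peak of the dense part began at chr6:90880601 for KHcy, at chr6:90886201 for H3K4me3 and at chr6:90907001 for H3K79Hcy. These 3 positions lay within 26.4 kb of each other, in separate libraries of the same cell line. All 3 fall between genes. The KHcy position lies 85.1 kb past the end of Rpl21-ps12 and 120 kb past Iqsec1, which encodes an exchange factor for Arf GTPases. It lies 82.5 kb before the annotated edge of Nup210, which encodes a nuclear pore protein. The first KHcy peak is called the boundary from here on. It was placed after the peaks had been seen, so the densities on its sides describe the split and are no test of it.

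Before the boundary, 87.8 Mb of sequence outside gaps held 16 H3K79Hcy peaks, 11 KHcy peaks and 80 H3K4me3 peaks. After it, 58.5 Mb held 1133, 1158 and 1949 peaks. The densities were 0.182 and 19.4 per Mb for H3K79Hcy, 0.125 and 19.8 per Mb for KHcy, and 0.911 and 33.3 per Mb for H3K4me3, so that the later part was 106, 158 and 36.5 times denser in the fits of the 3 lists. It took 98.6% of the peaks with H3K79Hcy, 99.1% with KHcy and 96.1% with H3K4me3. The 87.8 Mb of the sparse part held the starts of 663 protein-coding genes, and the 58.5 Mb after the boundary held 508. GC content was 40.8% in the sparse part and 42.4% after the boundary.

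**Figure D1:**
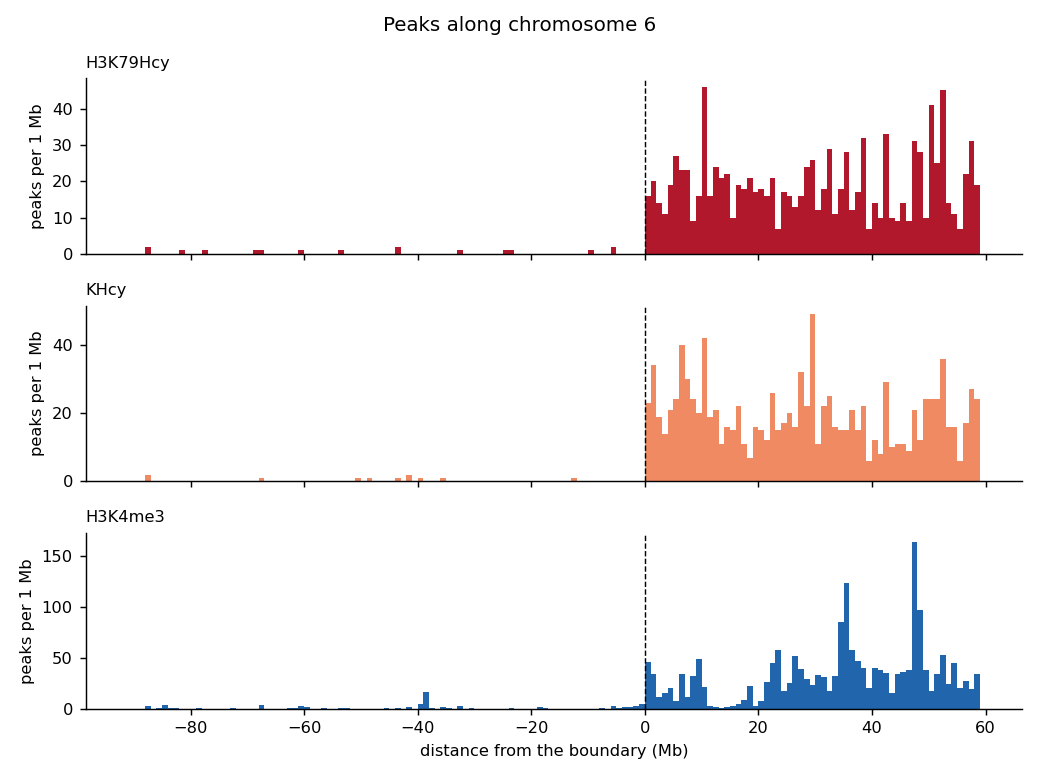
Peaks per 1 Mb of chromosome 6 for H3K79Hcy, KHcy and H3K4me3, plotted against the distance from the boundary in Mb; bars are counts of peaks, each row has its own vertical scale, and the dashed line is the boundary. The 1133, 1158 and 1949 peaks after the boundary fill the right of each row, while 16, 11 and 80 peaks are scattered over the left.

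The change was abrupt. Within 1 Mb before the boundary the H3K79Hcy and KHcy lists had 0 peaks each and the H3K4me3 list had 5, and within 1 Mb after it they had 16, 23 and 46. Within 500 kb the counts were 0 before and 8 after for H3K79Hcy, 0 and 10 for KHcy, and 0 and 27 for H3K4me3. The last H3K79Hcy peak before the boundary lay at the start of Emx1, and 5769 kb without a further peak followed it. For KHcy the empty stretch before the boundary was 12904.8 kb, from a peak 45.3 kb from Ctnna2, and the last H3K4me3 gap was 614.8 kb.

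**Figure D2:**
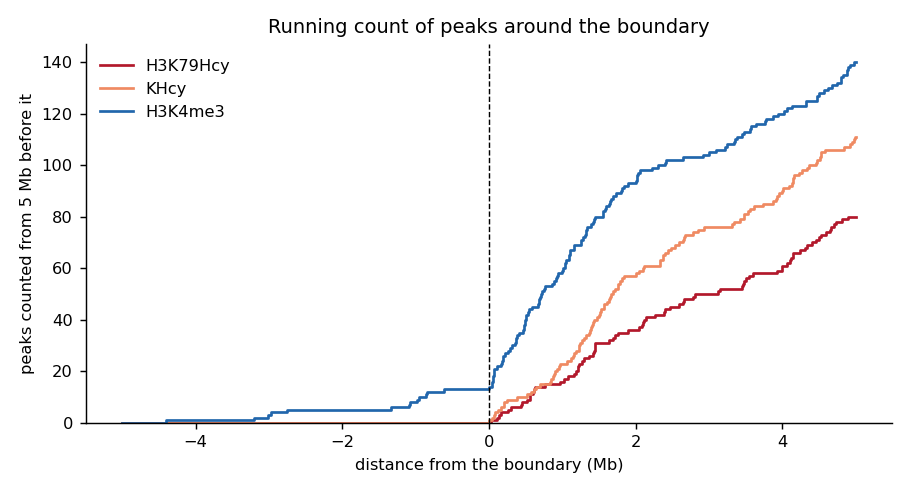
Running count of peaks from 5 Mb before to 5 Mb after the boundary, with distance from it in Mb on the horizontal axis and 1 line per antibody. The H3K79Hcy and KHcy lines stay at 0 up to the boundary and reach 80 and 111 peaks at the right edge, and the H3K4me3 line rises by 13 before it and by 127 after it.

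The same split was run on the other chromosomes with at least 50 peaks in every list, of which there were 12. On 3 of them, chromosomes 3, 8 and 10, the 3 positions also lay within 1 Mb of each other, spread over 616 kb, 164 kb and 982 kb. The later part of chromosome 3 was 74.9 times denser in H3K79Hcy peaks than its start, and the earlier part of chromosome 10 was 58.8 times denser than its end. The denser side of a split exceeded the sparser by a median of 9.73 times (H3K79Hcy), 8.10 times (KHcy) and 5.25 times (H3K4me3) over the 12 chromosomes. A step in density shared by the antibodies was therefore not limited to chromosome 6. Of the 13 chromosomes, the 3 positions lay closest together on chromosome 6, within 26.4 kb. Copy number and reads outside peaks were not analysed here, and their part in the step was not tested.

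In steps of 5 Mb, all 12 steps from 90 Mb to the end were dense for H3K79Hcy, that is at or above 1.5 times the mean of the chromosome, and all 18 earlier steps were sparse, at or below 0.5 times the mean. The same 12 steps were dense and the same 18 sparse for KHcy. Over the whole genome, 4.12% of 534 steps of 5 Mb reached that limit for H3K79Hcy, 3.93% for KHcy and 10.1% for the H3K4me3 limit, and chromosome 6 supplied 12 of the 30 densest steps for H3K79Hcy. This share for H3K79Hcy follows from how the chromosome was chosen.

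Within the dense part the antibodies had different maxima. The H3K79Hcy counts of the 12 steps ran from 64 in 90 to 95 Mb to 135 in 140 to 145 Mb, with 125 in 100 to 105 Mb. The KHcy counts ran from 64 in 135 to 140 Mb to 137 in 95 to 100 Mb. H3K4me3 was uneven: 10 steps were dense, and the steps from 100 to 105 and from 105 to 110 Mb, with 71 and 39 peaks, were neither dense nor sparse. Those 2 steps held 10 and 11 gene starts, the fewest of the dense part for H3K79Hcy. The highest H3K4me3 counts were 351 peaks in 125 to 130 Mb and 371 in 135 to 140 Mb.

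Counted in steps of 1 Mb after the boundary, H3K79Hcy peaks ranged from 5 to 45 with a median of 18, KHcy peaks from 4 to 49 with a median of 20, and H3K4me3 peaks from 0 to 149 with a median of 32. Over these 59 steps the counts of H3K79Hcy and KHcy rose and fell together, with a Spearman rho of 0.61, and neither followed H3K4me3, with rho of -0.06 and -0.05. H3K4me3 followed GC content, with rho of 0.57, and the number of gene starts, with rho of 0.49. For H3K79Hcy the rho with GC content was -0.31 and with gene starts -0.12. Neighbouring steps share base composition and all counts of an antibody share a library, so these values are descriptions. Over all 30 steps of 5 Mb the 3 pairs of antibodies had rho of 0.81, 0.79 and 0.74, in which the step at the boundary is included.

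The highest H3K4me3 counts lay in 2 stretches in which every window of 250 kb had at least 30 H3K4me3 peaks, though steps of 1 Mb outside them also ranged from 0 peaks at 105 Mb to 63 at 127 Mb. The limit was chosen after the counts had been seen. The first, from 125.5 to 126.5 Mb, held 171 H3K4me3 peaks that covered 42.4% of it, with 34 H3K79Hcy and 21 KHcy peaks. It holds Ano2, which encodes a calcium-activated chloride channel, the clotting factor gene Vwf, the neurotrophin gene Ntf3 and the potassium channel gene Kcna5. The second, from 137.75 to 139.5 Mb, held 269 H3K4me3 peaks that covered 33.8%, with 60 H3K79Hcy and 36 KHcy peaks, and holds Dera, Slc15a5, Mgst1, Lmo3, Igbp1b and Rergl. Only 1 and 3 of these H3K4me3 peaks covered the start of a protein-coding gene. Their median width of 2000 bp and median fold of 2.69 stood beside 1800 bp and 2.53 for the other H3K4me3 peaks after the boundary, and the latter stood at 27.05 per Mb.

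Peaks were narrowest for H3K79Hcy. All peaks were whole multiples of a 200 bp window, and the median widths on chromosome 6 were 1200 bp for H3K79Hcy, 2000 bp for KHcy and 1800 bp for H3K4me3, with quartiles of 800 and 1400, 1600 and 2400, and 1400 and 2400 bp. The widest H3K79Hcy peaks were 4000 bp and the widest KHcy peaks 7000 bp. The widest of both lists shared a place between genes, at chr6:101728001-101732000 with 111 H3K79Hcy reads and at chr6:101726001-101733000 with 158 KHcy reads, where a H3K4me3 peak also lay. The other widest H3K79Hcy peak lay in Slco1a6, which encodes an organic anion transporter, and the other 7000 bp KHcy peak in the nuclear receptor gene Nr2c2. The widest H3K4me3 peak, of 11800 bp and 209 reads, lay at the end of Ano2, and the next, of 9800 and 9400 bp, lay between genes at chr6:100407001-100416800 and chr6:117670201-117679600. The parts of the peak calling and of the depth of each library in the order of the medians were not tested.

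**Figure D3:**
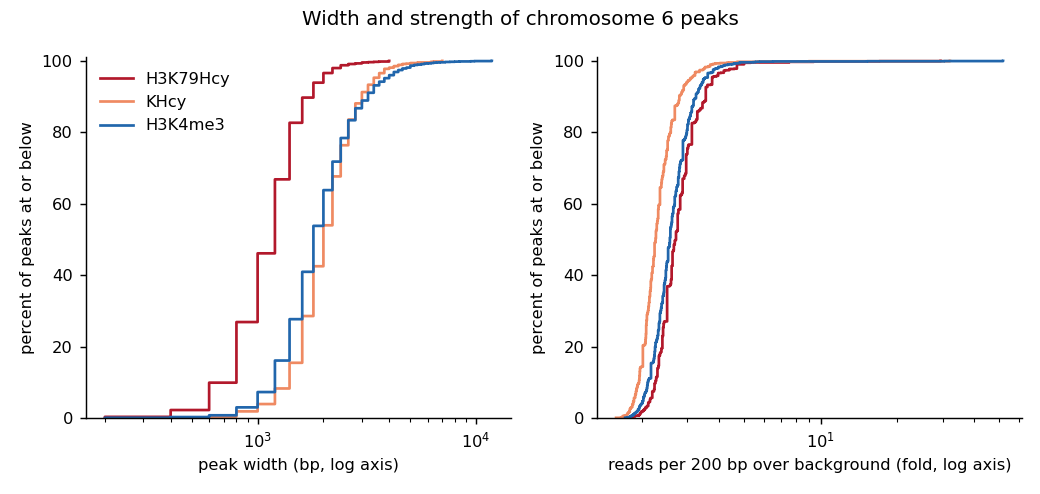
Cumulative share of chromosome 6 peaks by width in bp (left, log axis) and by reads per 200 bp over the background of the library (right, fold on a log axis), with 1 line per antibody. The medians are 1200, 2000 and 1800 bp and 2.72, 2.26 and 2.57 fold for H3K79Hcy, KHcy and H3K4me3.

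Most peaks were weak. The median peak had 24 reads for H3K79Hcy, 33 for KHcy and 31 for H3K4me3, which is 4.33, 3.36 and 3.56 reads per 200 bp. Divided by the background of each library, 1.59, 1.49 and 1.38 reads per 200 bp, the medians were 2.72, 2.26 and 2.57 fold. On all other chromosomes the medians were 2.70, 2.24 and 2.59 fold, so the peaks of chromosome 6 were more numerous but about as strong and as wide, at 1200, 2000 and 1800 bp elsewhere. Peaks above 5 fold were rarer than elsewhere, with 11 of 1149 H3K79Hcy peaks (0.957%, 95% Wilson interval 0.535 to 1.71%) against 3.06% on the other chromosomes (2.66 to 3.52%). For KHcy they were 3 peaks (0.257%, 0.0873 to 0.752%) against 2.07%, and for H3K4me3 8 peaks (0.394%, 0.200 to 0.776%) against 1.51%. On chromosome 1 the H3K79Hcy share was 0.900%, near that of chromosome 6, and on chromosome 5 it was 5.13%.

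The 2 strongest peaks were at the same places in every list. The peak in Chl1, which encodes a neural cell adhesion molecule, lay in an intron and reached a coding exon with H3K79Hcy, and had 141 reads with H3K79Hcy, 143 with KHcy and 143 with H3K4me3, or 29.5, 32.1 and 51.8 fold. The peak at chr6:3151401-3151600, 171 kb from the nearest gene Samd9l, had 27 H3K79Hcy and 42 H3K4me3 reads in 200 bp and 40 KHcy reads in 600 bp. The third of the H3K79Hcy and KHcy lists lay in an intron of Sox5, with 15 reads in 200 bp and 17 reads in 400 bp, and overlapped a H3K4me3 peak of 25 reads in 1400 bp and 2.59 fold. The third of the H3K4me3 list, with 21 reads and 15.2 fold, lay at chr6:49186401-49186600, 7.32 kb from Tra2a, a splicing factor gene. The antibodies thus gave near equal reads in Chl1.

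Sequence of the Chl1 and chr6:3151401-3151600 windows also occurred elsewhere in the genome. Of 172 distinct words of 21 bases in the Chl1 window, 64 also lay within chr2:98500001-98510000, where each list had 4 peaks with up to 896 reads for H3K79Hcy, 900 for KHcy and 908 for H3K4me3. Of 180 words of the other window, 60 also lay within chr17:39980001-39990000, where each list had 1 peak, with 939, 1110 and 1588 reads. For the Sox5 and Cecr2 windows the best match elsewhere shared 1 word, and the Emx1, Hist4h4 and boundary windows had none. Over all peaks above 5 fold, the median share of 31-base words found more than 1 time in the genome was 4.32% for the 11 of H3K79Hcy, 43.3% for the 3 of KHcy and 38.1% for the 8 of H3K4me3. For all peaks of chromosome 6 it was 0.515%, 1.57% and 2.03%, and for windows of 2 kb placed every 50 kb on chromosome 6 it was 4.62%. The part of repeated sequence in these read counts was not tested.

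The 16 H3K79Hcy peaks before the boundary included shared ones. 5 of them overlapped peaks of both other antibodies, and 6 overlapped H3K4me3, or 37.5% (18.5 to 61.4%). Besides the peak at chr6:3151401-3151600 and its neighbour at chr6:3133601-3134600, these lay at chr6:23110401-23113600, 27.4 kb from Aass, with 97 H3K79Hcy reads, 76 KHcy reads and 88 H3K4me3 reads, and in a pair of peaks 51.3 and 52.5 kb from Ezh2, which encodes the H3K27 methyltransferase, with 32 and 107 H3K79Hcy reads inside single peaks of 141 KHcy and 193 H3K4me3 reads. Repeated words made up 70.4% of the H3K79Hcy peak near Aass, 25.3% of the one at chr6:3133601-3134600, and 2.99% and 8.43% of the pair near Ezh2, and their part in the reads was not tested. The 1 peak at a gene start lay on Emx1, a homeobox gene of the developing forebrain, at chr6:85137001-85138000, with 22 reads, 62.9% GC and 68 CpGs, and no KHcy or H3K4me3 peak overlapped it. Of 87 steps of 1 Mb before 90 Mb, 73 had no H3K79Hcy peak, 78 no KHcy peak and 53 no H3K4me3 peak.

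H3K4me3 peaks of the sparse part lay closer to gene starts than those of the dense part. Their median distance to the nearest gene start was 11.7 kb against 48.2 kb, and 7 of 80 covered a gene start (8.75%, 4.30 to 17.0%) against 68 of 1949 (3.49%, 2.76 to 4.40%), intervals that overlap. The richest step, from 52 to 53 Mb with 16 peaks, is the Hoxa cluster of homeobox genes with the neighbouring homeobox gene Evx1. Among 11 Hoxa genes, 6 were overlapped by H3K4me3, beside 29 of all 663 genes before the boundary (4.37%). There were 4 peaks in Hoxa3, 3 in Hoxa10 and 2 in Hoxa9, and the starts of Hoxa5 and Hoxa9 were covered. The peak at chr6:52152401-52155200 counts for both Hoxa3 and Hoxa5, and that at chr6:52180601-52181800 for both Hoxa9 and Hoxa10. None of the 11 held a H3K79Hcy or KHcy peak, beside 1.06% and 0.603% of all genes before the boundary. Other H3K4me3 peaks stood 0.805 kb, 3.005 kb and 12.9 kb from Dlx5 and 6.33 kb from Dlx6, homeobox genes of forebrain interneurons, and in the imprinted gene Mest.

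Overlaps between antibodies were a minority of peaks. Of the H3K79Hcy peaks of chromosome 6, 178 overlapped a KHcy peak by at least 1 bp (15.5%, 13.5 to 17.7%), against 13.9% over all chromosomes. With H3K4me3 peaks 182 overlapped (15.8%, 13.8 to 18.1%), against 15.4% over all chromosomes, 9.82% on chromosome 1 and 24.6% on chromosome 5. Of the KHcy peaks, 216 overlapped H3K4me3 (18.5%, 16.4 to 20.8%), against 16.5% over all chromosomes. These 3 shares were close to those of the whole lists. Of the H3K4me3 peaks 181 overlapped H3K79Hcy (8.92%, 7.76 to 10.2%), against 5.19% over all chromosomes, a share above that of chromosomes 1 (5.68%, 4.68 to 6.86%) and 5 (4.73%, 4.08 to 5.49%). With KHcy 230 of them overlapped (11.3%), against 5.58% on the other chromosomes, and the H3K79Hcy and KHcy peaks in which they could fall were also denser on chromosome 6, as given above. After the boundary, peaks covered 2.29% of the sequence for H3K79Hcy, 4.22% for KHcy and 6.87% for H3K4me3.

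**Figure D4:**
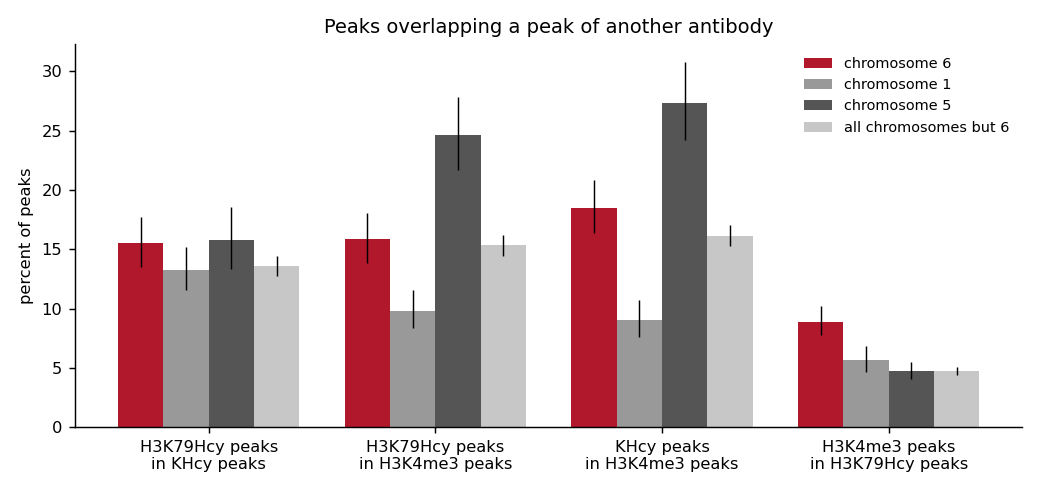
Share of peaks, in percent, that overlap a peak of another antibody by at least 1 bp, on chromosome 6, chromosome 1, chromosome 5 and all chromosomes but 6; bars are shares and lines are 95% Wilson intervals. For H3K79Hcy in KHcy peaks the 4 bars lie between 13.3% and 15.8%, while for H3K79Hcy in H3K4me3 peaks they run from 9.82% on chromosome 1 to 24.6% on chromosome 5.

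By sharing, 840 of the 1149 H3K79Hcy peaks (73.1%) overlapped neither other list, 127 overlapped KHcy only, 131 H3K4me3 only and 51 both. The 51 peaks in all lists had a median of 3.14 fold and 29 reads, against 2.71 fold and 23 reads for the 840, with the same median width of 1200 bp. Of the 51, 70.6% passed a stricter score, against 32.4% of the 840. Their median GC content was 38.8% and 40.9%.

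Few H3K79Hcy peaks were centred in promoters. By their centres, 7 of 1149 (0.609%, 0.295 to 1.25%) lay within 2000 bp before a gene start, 46 in exons, 434 in introns (37.8%), and 656 between genes (57.1%). The sequence of chromosome 6 divides as 1.58% promoter, 2.72% exon, 38.4% intron and 56.7% between genes. KHcy had 1.63% of its peaks in promoters and 41.4% in introns. H3K4me3 had 3.75% in promoters (3.00 to 4.66%), 2.56% in exons and 36.1% in introns. Most H3K4me3 peaks of this chromosome thus did not lie at promoters either. After the boundary, where almost all peaks lay, the sequence divides as 1.72%, 3.00%, 41.65% and 52.96%. Of the H3K79Hcy peaks there, 37.9% lay in introns (35.1 to 40.7%), below the sequence, and 57.1% between genes (54.20 to 59.96%), above it. H3K4me3 had 36.7% and 56.6% there, on the same sides. KHcy, with 41.7% and 51.7%, was near the sequence in both.

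Starts of protein-coding genes were covered by H3K4me3 in 79 of 1171 genes (6.75%, 5.45 to 8.33%), against 5.41% of all genes of the genome. For KHcy they were 25 genes (2.13%, 1.45 to 3.13%) against 0.996%, and for H3K79Hcy 8 genes (0.683%, 0.347 to 1.34%) against 0.416%. The H3K79Hcy share is not independent of the choice of the chromosome. The 75 H3K4me3 peaks at gene starts had a median GC content of 49.7% and 30.5 CpGs per kb, against 43.5% and 8.13 for the others. The 8 H3K79Hcy peaks at gene starts had 51.2% and 49 CpGs per kb, against 40.8% and 6. The strongest H3K4me3 peaks at starts lay on Ddx47, an RNA helicase gene, with 29 reads and 4.20 fold, and on Brpf1, a scaffold of histone acetyltransferase complexes, with 51 reads and 4.10 fold. Hist4h4, a histone H4 gene, was covered at its start by all lists, with 28 H3K79Hcy, 32 KHcy and 32 H3K4me3 reads or 3.52, 4.31 and 3.86 fold. The other H3K79Hcy starts of highest fold were C030030A07Rik with 16 reads and the bitter taste receptor gene Tas2r125 with 20 reads.

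Gene bodies on chromosome 6 held a H3K79Hcy peak in 193 of 1171 protein-coding genes (16.5%, 14.5 to 18.7%), against 7.82% of all genes. KHcy peaks lay in 216 (18.4%, 16.3 to 20.8%), against 9.28%, and H3K4me3 peaks in 318 (27.2%, 24.7 to 29.8%), against 19.7%. The raised H3K79Hcy share follows from how the chromosome was chosen. The 3 shares were 17.9%, 20.8% and 32.2% on chromosome 1 and 15.0%, 18.8% and 38.3% on chromosome 5. On chromosome 6 the genes with a peak were almost all past the boundary, with 186 of 508 for H3K79Hcy (36.6%), 212 for KHcy (41.7%) and 289 for H3K4me3 (56.9%), against 7, 4 and 29 of the 663 genes before it. Long genes held peaks most often. Past the boundary 55 of 64 genes of at least 100 kb had a H3K79Hcy peak (85.9%), 90 of 185 genes of 20 to 100 kb (48.6%) and 41 of 259 shorter ones (15.8%). Per length the order did not hold, with 1.62, 2.20 and 2.31 H3K79Hcy peaks per 100 kb of gene body in those classes. Before the boundary 5 of 78 genes of at least 100 kb had a H3K79Hcy peak.

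The 10 genes with the most H3K79Hcy peaks all lay past the boundary, and those with the most were long. Sox5, a transcription factor of neural and cartilage development, held 17 H3K79Hcy peaks in 954 kb, with 14 KHcy and 25 H3K4me3 peaks. All 17 lay in introns, with 15 to 38 reads each. Grm7, a metabotropic glutamate receptor, held 15, with 13 KHcy and 4 H3K4me3 peaks, and Cntn4, a contactin of axons, held 13, with 11 KHcy peaks and no H3K4me3 peak. Cacna1c, the pore of an L-type calcium channel, held 12, with 10 KHcy and 25 H3K4me3 peaks. Erc1, a scaffold of the presynaptic active zone, and Ano2 held 11 each, with 8 and 15 KHcy peaks and 1 and 77 H3K4me3 peaks. Pde3a, a cyclic nucleotide phosphodiesterase, held 10, the lectin gene Clec1a and the H3K4 demethylase gene Kdm5a 9 each, and Rad18, a ubiquitin ligase of DNA damage tolerance, 7, ahead of other genes with 7 by its density. Among the 10 genes the start of Rad18 alone was covered by H3K79Hcy, that of Kdm5a by KHcy, and those of Grm7, Kdm5a and Rad18 by H3K4me3. By density Clec1a, with 14.4 per 100 kb, Kdm5a, with 11.2, and Rad18, with 9.11, were well above Sox5, with 1.78, and Cntn4, with 1.27.

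**Figure D5:**
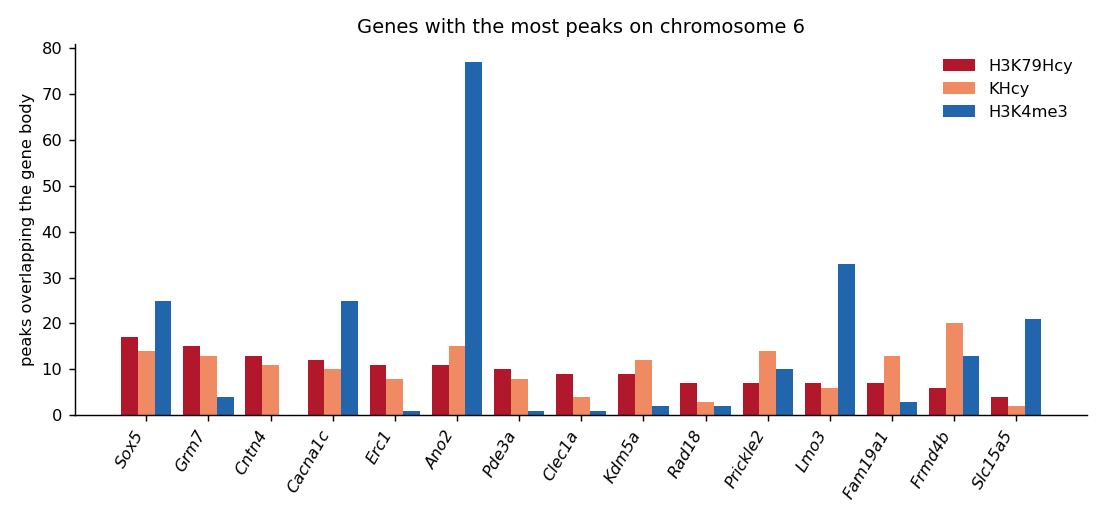
Number of H3K79Hcy, KHcy and H3K4me3 peaks that overlap the body of each of the genes with the most peaks on chromosome 6, ordered by the H3K79Hcy count; bars are counts from 1 library each. Sox5 leads with 17 H3K79Hcy peaks, Frmd4b with 20 KHcy peaks and Ano2 with 77 H3K4me3 peaks.

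KHcy had its most peaks in Frmd4b, a FERM domain gene, with 20 against 6 for H3K79Hcy, followed by Ano2 with 15, Prickle2, a planar cell polarity gene, and Sox5 with 14 each, and Fam19a1 with 13. H3K4me3 had 77 peaks in Ano2, 33 in Lmo3, a LIM-only cofactor of transcription, 25 each in Cacna1c and Sox5, and 21 in Slc15a5. Of these genes only Slc15a5 had its start covered by H3K4me3. Per 100 kb Ano2 and Slc15a5 were alike, with 22.0 and 21.8 H3K4me3 peaks.

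Genes of like function lay on both sides of the boundary, after which 36.6% of all genes held a H3K79Hcy peak, 41.7% a KHcy peak and 56.9% a H3K4me3 peak, and of those of at least 100 kb 85.9%, 95.3% and 90.6%. Of 10 genes of synaptic and neuronal adhesion, the 5 before it (Cntnap2, Ctnna2, Lrrtm1, Lrrtm4 and Ptprz1) held no H3K79Hcy or KHcy peak. Cntnap2 spans 2241 kb and Ctnna2 1098 kb. Of all 663 genes before the boundary, 7 held a H3K79Hcy peak and 4 a KHcy peak. Those of at least 100 kb had 0.0218 H3K79Hcy and 0 KHcy peaks per 100 kb. The 5 after it held 35 H3K79Hcy and 30 KHcy peaks, with 13 in Cntn4, 7 in Cntn3, 6 in Chl1, 5 in Cntn6 and 4 in Magi1 for H3K79Hcy. H3K4me3 gave 1 peak before the boundary, in an intron of Cntnap2, and 9 peaks in 3 of the genes after it, of which 7 lay in Magi1, a scaffold of cell junctions. The median of the list was 2 H3K79Hcy peaks per gene, which is the midpoint of 0 and the 4 of Magi1. Over all genes of chromosome 6, with a median length of 16.2 kb, it was 0. Apart from Lrrtm1 the genes of the list each spanned more than 100 kb. The median was 1 for the list of receptors, channels and transporters and 0 for each other list.

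Among 17 genes of neuronal receptors, channels and transporters, the 4 before the boundary (Grm8, Chrm2, Kcnd2 and Npy) held no peak of any antibody. Of all genes before it 1.06% held a H3K79Hcy peak, 0.603% a KHcy peak and 4.37% a H3K4me3 peak. Of the 13 after it, 9 held 39 H3K79Hcy peaks, 9 held 36 KHcy peaks and 12 held 69 H3K4me3 peaks, against shares of 36.6%, 41.7% and 56.9% of all genes there. Cacna1c, Cacna2d4, Grin2b, Grm7, Itpr1 and Slc6a11 among them spanned at least 100 kb. Of all genes that long after the boundary 85.9%, 95.3% and 90.6% held a peak, and of those of 20 to 100 kb 48.6%, 56.2% and 70.3%. The part of gene length in these counts was not tested. Of the group III metabotropic receptors, the 860 kb of Grm8 held 0 H3K79Hcy peaks and the 922 kb of Grm7 held 15. The boundary was placed from these same peaks, so such pairs describe the split and add no support to it. Grin2b, a subunit of the NMDA receptor, held 3 H3K79Hcy, 5 KHcy and 12 H3K4me3 peaks, and Slc6a11, a GABA transporter, held 1, 2 and 13.

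For axon guidance, Wnt and growth factor signalling, 14 of 15 genes were matched. The 5 before the boundary (Met, Plxna1, Plxna4, Wnt2 and Wnt16) held no peak, beside 1.06%, 0.603% and 4.37% of all genes before it with H3K79Hcy, KHcy and H3K4me3. Of the 9 after it 4 held 6 H3K79Hcy peaks, with 2 in Ccnd2, a cyclin of the start of the cell cycle, and 1 in Wnt7a, a Wnt ligand. KHcy gave 9 peaks in 5 of them and H3K4me3 13 peaks in 8 of them. The shares of all genes there were 36.6%, 41.7% and 56.9%.

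Of 28 matched transcription factor and chromatin genes, from a list of 29, the 7 before the boundary held no H3K79Hcy or KHcy peak and 1 H3K4me3 peak, at the start of Evx1. Of all genes before the boundary 1.06%, 0.603% and 4.37% held a H3K79Hcy, KHcy and H3K4me3 peak. Of the 21 after it 13 held 64 H3K79Hcy peaks, 13 held 69 KHcy peaks and 15 held 97 H3K4me3 peaks, beside 36.6%, 41.7% and 56.9% of all genes after the boundary. Cecr2, Etv6, Foxp1, Lmo3, Mitf, Pparg, Sox5 and Vgll4 among them spanned at least 100 kb. Of all genes that long after the boundary 85.9%, 95.3% and 90.6% held a peak. The forkhead genes are another pair that only describes the split, with 0 H3K79Hcy peaks in Foxp2 (541 kb, before) and 4 in Foxp1 (341 kb, after). Pparg, a nuclear receptor of fat cells, and Lmo3 held 7 H3K79Hcy peaks each, Mitf, a factor of pigment cells, and Setd5, a SET domain gene, held 5 each. Cecr2, a chromatin remodelling gene needed for neural tube closure, held 5 H3K79Hcy peaks, with 24, 19, 17, 23 and 21 reads along the gene, all in introns and between 2.15 and 3.61 fold. It also held 9 KHcy peaks and no H3K4me3 peak. Nanog, Zfp384 and Setmar past the boundary held no peak of any antibody.

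The gene families clustered on chromosome 6 are mostly of short genes, and of all genes under 20 kb H3K79Hcy peaks lay in 0.526% before the boundary and in 15.8% after it. All 51 Vmn1r vomeronasal receptor genes lie before the boundary, and none was overlapped by a peak of any antibody, though H3K4me3 peaks stood between some of them. Of all genes under 20 kb before the boundary 0.526% held a KHcy peak and 3.16% a H3K4me3 peak. Of 33 Tas2r bitter taste receptor genes 24 lie after it, with a H3K79Hcy peak in 2, a KHcy peak in 0 and a H3K4me3 peak in 5. Of all genes under 20 kb after the boundary 15.8% held a H3K79Hcy peak, 18.1% a KHcy peak and 39.0% a H3K4me3 peak. Of 27 Klr killer cell receptor genes, 26 lie after the boundary. Of these, 8 held a H3K79Hcy peak, 8 a KHcy peak and 8 a H3K4me3 peak. The shares were 36.6%, 41.7% and 56.9% of all genes after the boundary. For those of 20 to 100 kb, a length that some Klr and Clec genes have, they were 48.6%, 56.2% and 70.3%. Of 24 Clec lectin genes, 21 lie after the boundary. Of these, 14 held a H3K79Hcy peak, 13 a KHcy peak and 9 a H3K4me3 peak, beside the same shares. There were 9 H3K79Hcy peaks in Clec1a and 6 in Clec4a2, genes of 62.7 and 37.6 kb. The 5 H3K79Hcy peaks of Clec1b are counted in Clec1a too, since the genes overlap. Members of such families are similar in sequence, and reads shared between copies cannot be assigned from the lists.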

How the data were processed

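ChIP-seq peak lists of NE4C cells were analysed, with 1 library per antibody and no replicate or control library used here. Per the methods, the authors aligned reads to mm9 with Bowtie 2 and filtered peaks through control input, while the columns of the lists where a control would stand hold no values. The submitters' processing notes name MACS 1.4.2, while a legend names SICER. The authors deposited for each peak its length, the count of its reads, not scaled for depth, and a score. For peaks of 1 window the deposited score equalled minus the natural logarithm of the Poisson chance of its reads at a library-wide background, which was solved from it (1.59, 1.49 and 1.38 reads per 200 bp). Fold is reads per 200 bp over that background. The reads in peaks of chromosome 6 were 29199 for H3K79Hcy, 42100 for KHcy and 74485 for H3K4me3, and total depth is unknown. PCR reads are not independent molecules, so intervals cover counting error only.

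Positions are 1-based mm9. Genes were the 22380 protein-coding genes of GENCODE M1 (1171 on chromosome 6), and sequences came from the NCBIM37 genome. A peak belonged to a gene if it overlapped the body by at least 1 bp. Promoters were 2000 bp before a start. Named genes were the 10 with the most H3K79Hcy peaks, the 5 with the most KHcy and the 5 with the most H3K4me3 peaks, Cecr2, members of 5 lists and of 4 gene families, and the 3 strongest and 3 widest peaks per antibody. Other genes beside them, such as the nearest ones, were named after their values were seen. The members, lists and named genes were chosen with earlier results of these data known. Ndnf and Tfec were not matched. Some members of the lists are not reported here by name. The functions were tested on simulated data. Python 3.11.15, numpy 2.4.6, pandas 2.3.3, scipy 1.17.1 and numba 0.67.0 were used. Alternatives were a stricter score (the lowest of the list plus the natural log of 100), merging within 3000 bp, other overlap rules and other steps.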

Additional observations from a re-analysis of the deposited data

How the results depend on the processing

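The place of the peaks changed little with the settings tried. With the stricter score the shares after the boundary were 98.0% for H3K79Hcy, 98.9% for KHcy and 96.8% for H3K4me3, and the first peaks of the dense part began 108 kb, 0 kb and 40.2 kb past the boundary, an alternative chosen after seeing the data. Steps shifted by 2.5 Mb gave 12, 12 and 9 dense and 17, 17 and 18 sparse steps. Counts depended on the score: 407 H3K79Hcy, 557 KHcy and 1213 H3K4me3 peaks passed the stricter one, with median widths of 1400, 2400 and 2200 bp, a median of 3.62 reads per 200 bp for H3K4me3, and peaks in 8.37%, 12.3% and 19.2% of genes. With the peak centre required in the gene body, the H3K4me3 share was 24.4%. The overlap of H3K79Hcy with KHcy was 12.1% where at least 50% of the peak had to be covered and 21.1% where peaks within 1000 bp counted. For H3K79Hcy with H3K4me3 these shares were 12.9% and 21.8%, and for KHcy with H3K4me3 12.7% and 23.4%, with 15.8% under the stricter score. The cause of these shifts was not tested. The ranking of genes was the least stable. Of the 10 genes with the most H3K79Hcy peaks 5 remained under the stricter score and 0 when ranked per 100 kb, where Hist4h4, a gene of 0.312 kb with 1 peak, came first, level with 5330439B14Rik for H3K4me3, and of the 5 genes for KHcy 2 and 0 remained, and for H3K4me3 5 and 0. No paired analysis was possible because each antibody had 1 library and no result came from a test. Read counts per peak of about 20 to 40 limit the precision of each fold.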
